A study of Homo sapiens with 6 samples.

Results

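The translation initiation factors described here are the protein-coding genes whose names start with EIF and a digit, without the EIF2AK kinases and without hyphenated readthrough names. This rule took 52 of the 60843 genes in the deposited expression table and used no measured value. Expression was given as FPKM, fragments per kilobase of gene, scaled to each library's size by the authors. Of the 52 genes, 48 reached an average of 0.5 FPKM across the 6 libraries and were tested. RNA sequencing libraries were made from the human liposarcoma line SW872-S in a study of dedifferentiated liposarcoma. In 3 libraries, called TP53INP2_OE, the gene TP53INP2 was overexpressed from a plasmid, and the other 3, called NC, were its control. TP53INP2 encodes a protein that takes part in autophagosome formation. The labels do not say what the NC cells carried, which promoter drove TP53INP2, how long it was expressed, or whether the cells were 1 clone or a pool. They do not say either whether the 3 replicates of a group were separate cultures, so the spread that a p-value rests on may be technical only.

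TP53INP2 itself, on chromosome 20 (34704339 to 34713439, GRCh38), was 9.92 ± 0.64 FPKM in NC and 23.1 ± 4.09 FPKM in TP53INP2_OE (SD over 3 libraries), or 2.33 times the NC level. Between 16038062 and 17607612 reads were assigned to genes per library. The tested EIF genes had from 89 reads, for EIF2S3B in its lowest library, to 20148 reads, for EIF4G2 in its highest. Of 6 mesenchymal markers 3 reached 1 FPKM (VIM, COL1A1 and PDGFRB), with a summed level of 846.7 to 887 FPKM in NC and 832 to 870.5 in TP53INP2_OE that is mostly VIM. VIM overlapped between the groups (719 to 750.5 and 734 to 782 FPKM), while COL1A1 (118 to 127 and 82.7 to 92.8) and PDGFRB (7.16 to 8.97 and 5.42 to 6.16) were lower in every TP53INP2_OE library. None of 5 adipocyte, 5 leukocyte or 4 epithelial markers reached 1 FPKM, and the adipocyte genes ADIPOQ, LEP and FABP4 were listed at 0 in every library. Of 3 endothelial markers CDH5 and PECAM1 reached 1 FPKM, and the summed level of the 3 was 34.5 to 39.2 FPKM in NC and 32.0 to 33.4 in TP53INP2_OE. CDH5 alone was lower (30.1 to 35.0 and 27.3 to 28.6 FPKM), PECAM1 overlapped between the groups, and VWF was higher (0.658 to 0.72 and 0.797 to 0.825). The part of these marker differences in the results was not tested. In bulk RNA, fewer cells of a type and less RNA per cell cannot be told apart.

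Translation starts when EIF2 brings the initiator tRNA to the small ribosomal subunit, where EIF1, EIF1A, EIF3 and EIF5 help it find the start codon. The subunit reaches most mRNAs through the cap, which EIF4E binds, with EIF4G as a scaffold and EIF4A as a helicase. Cells turn initiation down through kinases that phosphorylate EIF2 and so block its recharging by EIF2B. They also do so through mTORC1, since unphosphorylated EIF4E-binding proteins keep EIF4E from EIF4G.

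The promoters of 44 of the 52 genes were found in a RefSeq table (GRCh38.p14) and searched on both strands over the 250 bases before the start. Not found were those of EIF4EBP1, EIF3E, EIF3G, EIF3A, EIF3H, EIF3L, EIF3CL and EIF2S2, so the motif counts do not cover these genes. The E-box CACGTG, the sequence bound by MYC and related factors, was present in 11 of the 44, which is 25%, against 6.49% of all 27305 promoters of that length. The ETS motif CCGGAAG was found in 8 (18.2%, against 8.82% of all) and CCAAT in 16 (36.4%, against 33.0%). The cyclic AMP response element TGACGTCA and the ATF4 composite site TGATGNAAN were found in 0 of the 44, against 1.77% and 3.18% of all promoters. Motifs were searched separately and may overlap. Only the first listed start of each gene was used, so motifs at any other start were not counted. EIF4E, EIF4G1 and EIF5A2 are printed because each holds 2 copies of the E-box, shown in capitals, and because the cap-binding factor and its scaffold are among them. They lie at chr4:98929134-98929383 (minus strand), chr3:184314356-184314605 (plus strand) and chr3:170908638-170908887 (minus strand) and are written 5′ to 3′.
EIF4E: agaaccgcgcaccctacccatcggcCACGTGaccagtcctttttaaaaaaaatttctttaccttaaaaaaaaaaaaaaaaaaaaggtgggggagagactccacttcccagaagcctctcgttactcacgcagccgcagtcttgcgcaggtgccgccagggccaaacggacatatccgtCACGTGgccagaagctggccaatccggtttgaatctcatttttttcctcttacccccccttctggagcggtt
EIF4G1: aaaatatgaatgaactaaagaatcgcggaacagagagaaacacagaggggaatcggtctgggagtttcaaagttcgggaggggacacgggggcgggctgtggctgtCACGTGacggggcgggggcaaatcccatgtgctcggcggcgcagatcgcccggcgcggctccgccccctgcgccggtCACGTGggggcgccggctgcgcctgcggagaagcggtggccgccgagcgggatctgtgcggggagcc
EIF5A2: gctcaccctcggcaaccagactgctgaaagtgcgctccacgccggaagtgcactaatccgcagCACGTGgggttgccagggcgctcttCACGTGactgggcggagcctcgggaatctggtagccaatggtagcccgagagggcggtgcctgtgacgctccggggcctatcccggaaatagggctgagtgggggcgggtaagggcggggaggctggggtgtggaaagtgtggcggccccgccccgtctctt
Of all tested genes 35.0% passed the test of TP53INP2_OE against NC, 16.4% higher and 18.6% lower. Of the 11 genes with an E-box, 3 were higher in TP53INP2_OE (EIF1B, EIF4E and EIF5A2), 4 were lower (EIF3F, EIF4B, EIF4G1 and EIF4H), 3 did not pass the test (EIF2B3, EIF3K and EIF4A3) and EIF4EBP3 was not tested. Once GC content and length were fitted out of each library, none of the 3 passed and the 4 were still lower.

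Initiation factor genes moved in both directions, each by a modest amount. By limma on log2(FPKM + 1), with p-values adjusted over all 14791 tested genes, 25 of the 48 passed an adjusted p of 0.05, which is 52.1%. The background was 35.0% of all tested genes and 42.8% of the protein-coding ones. Among genes with a mean of 5 FPKM or more, 61.0% of the EIF genes (25 of 41) and 62.5% of all genes passed, so at these levels the EIF share was not above the background. Higher in TP53INP2_OE were 16 genes (background 16.4%) and lower were 9 (background 18.6%). At a mean of 5 FPKM or more, 14 of 41 EIF genes were higher and 11 lower, against 2136 and 2405 of 7264 genes. The backgrounds set beside the groups of factors below are those of all tested genes, which include weakly expressed ones. They are therefore lower than those at the levels of most EIF genes. The libraries of the groups did not overlap for 34 of the 48 genes, 19 higher and 15 lower, against 50.8% of all tested genes, 25.2% higher and 25.6% lower. The median log2 fold change was -0.0085 (all tested genes 0.0032), and the median size of change without its sign was 0.16 (all tested genes 0.18). Fold changes ran from -0.75, for EIF4EBP1, to 0.33, for EIF3E, on the log2 scale. The log2(FPKM + 1) scale understates the change of weakly expressed genes.

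The direction of change followed the base composition of the transcript. The 16 genes that rose had a median GC content (the share of G and C in the longest transcript) of 39.1%, and the 9 that fell one of 57.3%. Across the 48 genes, Spearman's rho between GC content and log2 fold change was -0.84, and across 11270 protein-coding genes it was -0.78. These are descriptions across genes that share the same 6 libraries. Among the 16 EIF genes lowest in GC content (34.3% to 42.8%), 14 rose and 1 fell. Among the 16 highest (49.6% to 65.5%), 1 rose and 7 fell, and in the middle 16 it was 1 and 1. The test was therefore also run after each library's trend with GC content and gene length over all tested genes was fitted out. Such a fit removes a biological trend together with a technical one. Then 9 of the 48 passed (18.8%), 2 higher and 7 lower, against 10.4% of all genes tested that way (4.53% higher, 5.88% lower) and 12.3% of the protein-coding ones. Of the 25 genes, 8 passed in the same direction in both fits, which were EIF3E and EIF3L higher and EIF4EBP1, EIF3G, EIF4H, EIF4G1, EIF4B and EIF3F lower. The values of EIF5A, EIF4G2, EIF4A2 and EIF4E changed sign. Across the 48 genes rho was still -0.48 after this fit, so a trend with GC content remained among the EIF genes. Among the 16 highest in GC content 4 then passed as lower and 1 as higher, and among the 16 lowest it was 1 and 1. What ties GC content to the fold changes was not tested.

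**Figure D1:**
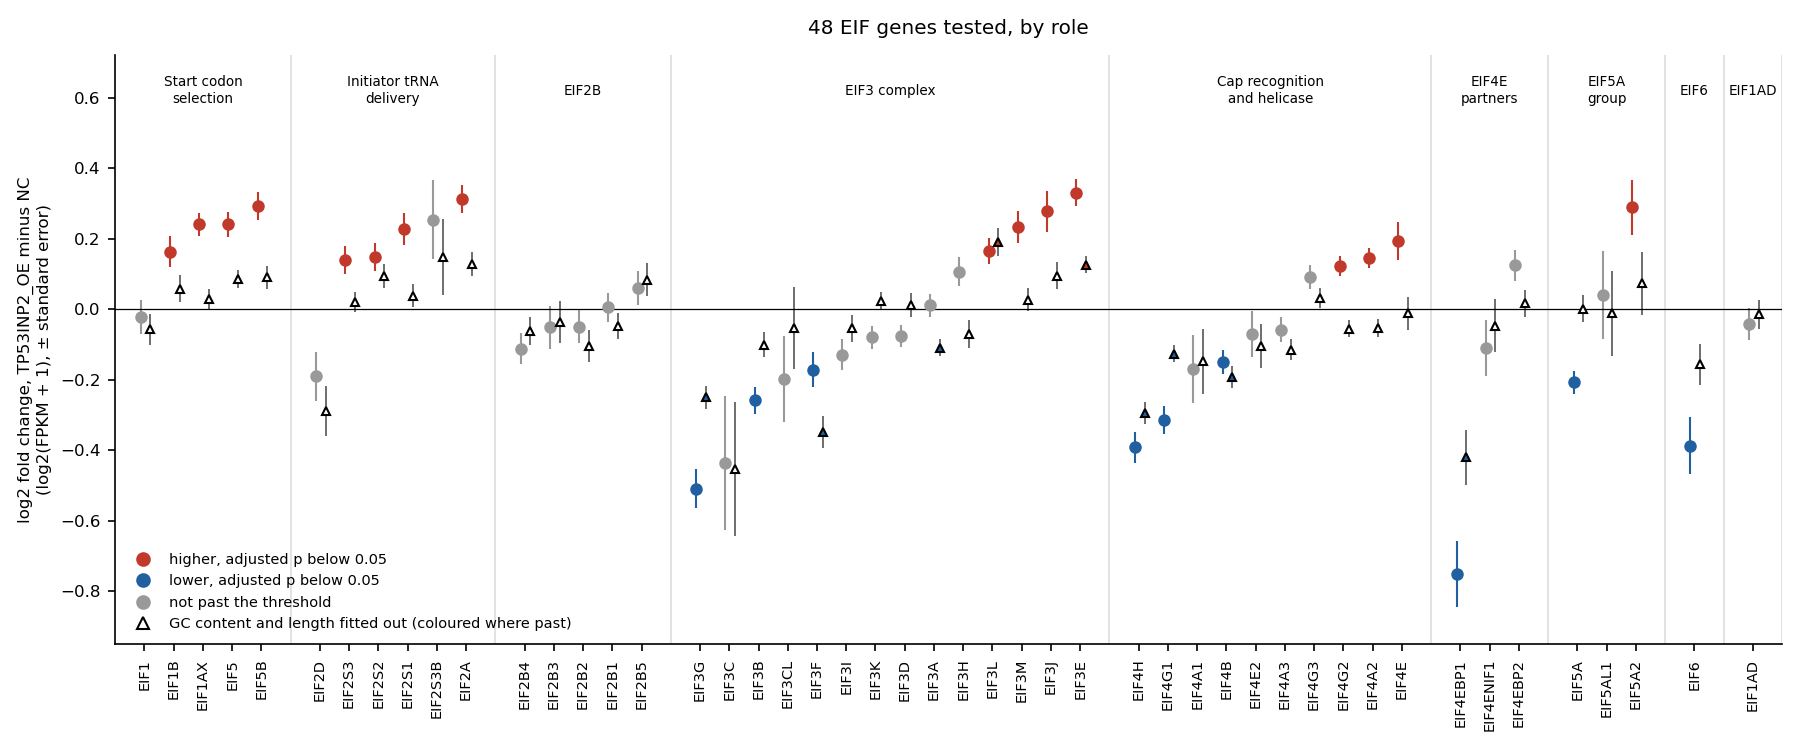
Log2 fold change (TP53INP2_OE minus NC, log2(FPKM + 1) scale, vertical axis) with its standard error for the 48 tested EIF genes, ordered by role. Circles are the values as deposited and triangles those after the fit on GC content and length: 16 circles are marked higher and 9 lower, while 2 triangles are marked higher and 7 lower.

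**Figure D2:**
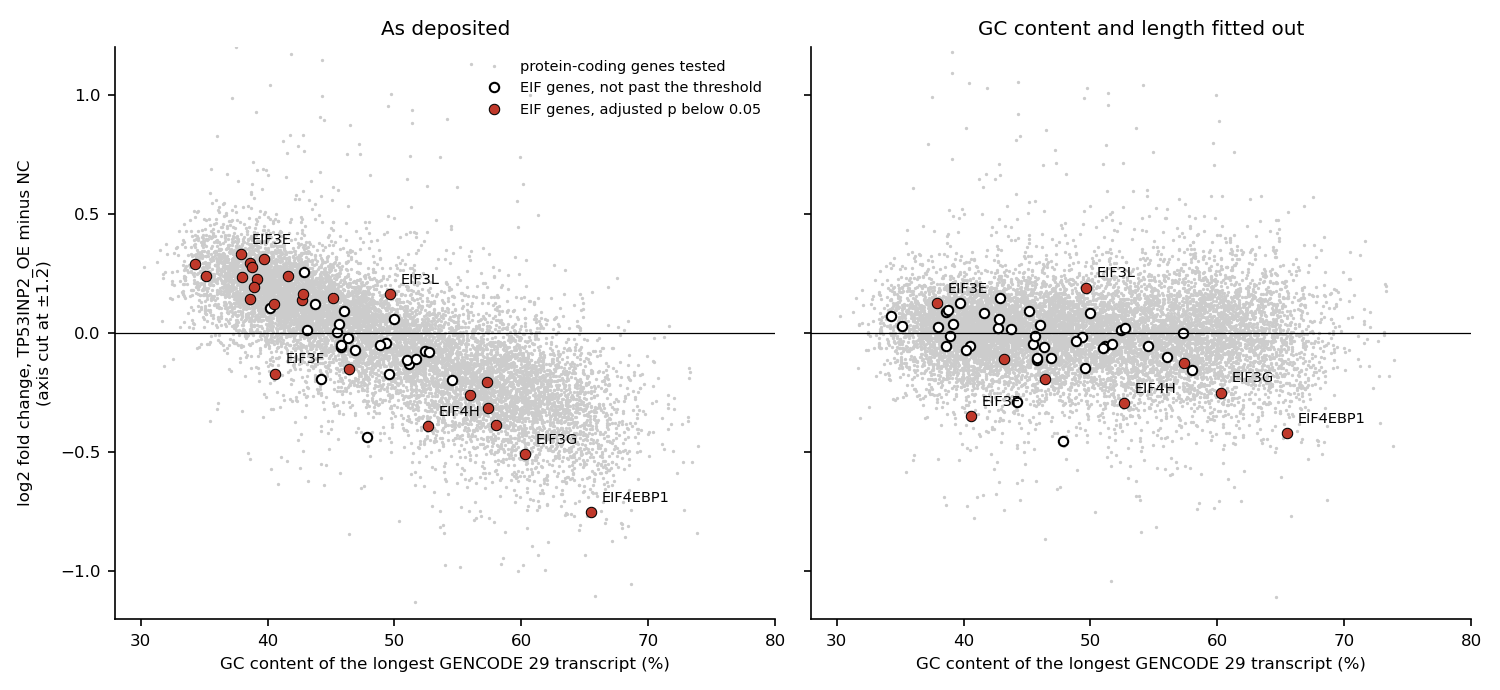
Log2 fold change (TP53INP2_OE minus NC, vertical axis) of the tested EIF genes against the GC content of the longest transcript in percent (horizontal axis), as deposited and after the fit on GC content and length. Spearman's rho across the 48 genes is -0.84 in the first and -0.48 in the second.

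The factors that select the start codon were higher in TP53INP2_OE for 4 of 5 tested genes (background 16.4% higher). These 4 had a GC content of 35.1% to 42.8%. They are among the 16 EIF genes lowest in GC content, of which 14 rose. EIF5B, the GTPase that joins the large subunit, was 30.3, 32.1 and 32.6 FPKM in the 3 NC libraries and 38.1, 39.5 and 39.3 in TP53INP2_OE, a log2 fold change of 0.29 (SE 0.04, limma adjusted p 0.00341). EIF5, which triggers GTP hydrolysis on EIF2 at the start codon, was 46.3, 47.8 and 48.4 FPKM against 55.3, 58.1 and 55.5 (0.24, SE 0.04, adjusted p 0.00444). EIF1AX, which opens the small subunit for scanning, was 36.5, 38.1 and 37.8 FPKM against 43.8, 45.4 and 44.1 (0.24, SE 0.03, adjusted p 0.0039). In all 3 the lowest TP53INP2_OE library lay above the highest NC library. EIF1, the guard against wrong start codons, was 107, 109 and 102 FPKM in NC and 105, 110 and 98.7 in TP53INP2_OE, with overlapping groups (log2 fold change -0.02, SE 0.05). EIF1B, its close paralog, was 9.22, 9.75 and 10.1 FPKM against 10.8, 10.9 and 11.1, which rose by 0.16 (SE 0.04, adjusted p 0.0283). That call was lost when any 1 library other than NC replicate 3 was left out, with an adjusted p of up to 0.0911. After the fit on GC content and length, the 4 risers were 0.03 to 0.09 higher and none passed. EIF1AY, on the Y chromosome, belongs to the group and its level is not given. EIF1AD, which shares the EIF1A domain in its name, did not pass (-0.04, SE 0.04).

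Of the 6 genes that deliver the initiator tRNA, 4 passed as higher (background 16.4% higher). EIF2A, a tRNA-binding factor that is not a subunit of EIF2, was 22.0, 22.0 and 21.9 FPKM in NC and 27.5, 28.7 and 26.4 in TP53INP2_OE, a rise of 25.3% (log2 fold change 0.31, SE 0.04, adjusted p 0.00325). The NC libraries lay very close together (SD 0.064 FPKM), and all lay below TP53INP2_OE. EIF2A overlaps SERP1 on the opposite strand, which had a mean of 32.5 FPKM, and the sources used here do not state whether strand entered the read assignment. Opposite-strand genes also overlap EIF5B (TXNDC9, 16.7 FPKM), EIF2S1 (ATP6V1D, 15.7), EIF2S2 (RALY, 30.4), EIF4G2 (CTR9, 18.4) and EIF4A2 (RFC4, 14.85), among others. The 3 subunits of EIF2 rose together. EIF2S1, the alpha subunit that the kinases phosphorylate, was 32.7 ± 0.82 FPKM in NC and 38.5 ± 2.0 in TP53INP2_OE (0.23, SE 0.05, adjusted p 0.011). EIF2S2, the beta subunit, was 112 ± 1.96 and 125 ± 5.33 FPKM (0.15, adjusted p 0.0275), and EIF2S3, the gamma subunit that holds GTP and the tRNA, 97.0 ± 1.27 and 107 ± 4.80 FPKM (0.14, adjusted p 0.0328). EIF2S2 lost its call without NC replicate 1, NC replicate 2 or TP53INP2_OE replicate 3 (adjusted p up to 0.0914), and EIF2S3 without any 1 NC library or TP53INP2_OE replicate 3 (up to 0.102). EIF2S2 and EIF2S3 also share 22.6% and 23.2% of their 50-base windows with other genes, chiefly EIF2S2P4 and EIF2S3B, so part of their reads could be split. EIF2S3B (0.25, SE 0.11) and EIF2D, a factor that can deliver tRNA without EIF2 (-0.19, SE 0.07), did not pass. None of the 6 passed with GC content and length fitted out, where the values of the 4 risers were 0.02 to 0.13.

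EIF2B recharges EIF2 with GTP, and none of its 5 subunit genes passed the test in either fit (background 35.0% and 10.4%). Their log2 fold changes ran from -0.11, for EIF2B4, to 0.06, for EIF2B5, the catalytic subunit. EIF2B5 was 8.91 ± 0.49 FPKM in NC and 9.32 ± 0.16 in TP53INP2_OE. The groups overlapped for EIF2B1, EIF2B2, EIF2B3 and EIF2B5. EIF2B4 was 6.38 to 6.81 FPKM in NC and 5.98 to 6.13 in TP53INP2_OE, lower in all 3 libraries, with an adjusted p of 0.0899.

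**Figure D3:**
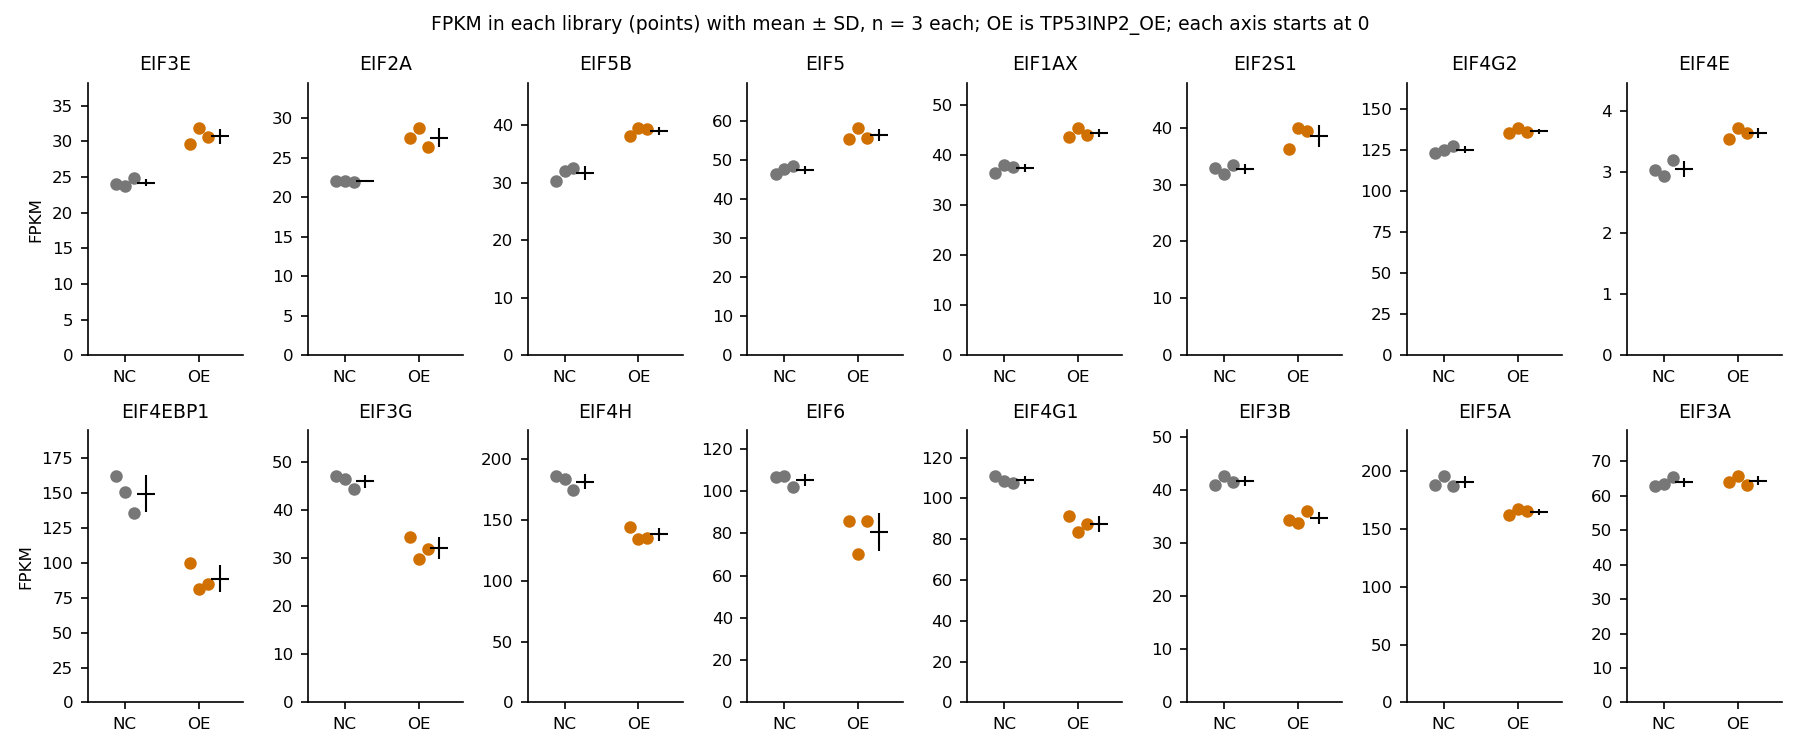
FPKM in each of the 6 libraries (points; vertical axis from 0) with the group mean and SD for EIF genes named in the text. EIF4EBP1 lies between 136 and 163 FPKM in NC and between 81.3 and 99.7 in TP53INP2_OE.

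EIF3, the largest factor, holds the small subunit together with the other factors. Of its 14 tested genes 4 rose and 3 fell (background 16.4% higher and 18.6% lower), so its subunits went in both directions. EIF3E, which lies in the part of the complex that human cells have and budding yeast lacks, was 24.1, 23.8 and 24.8 FPKM in NC and 29.7, 31.8 and 30.6 in TP53INP2_OE (log2 fold change 0.33, SE 0.04, adjusted p 0.00296). EIF3J, a loosely bound subunit, was 24.2, 23.3 and 25.3 FPKM against 27.7, 31.9 and 29.4 (0.28, SE 0.06, adjusted p 0.0123). EIF3M was 24.7, 25.2 and 25.8 FPKM against 29.4, 31.6 and 28.7 (0.23, SE 0.05, adjusted p 0.00941). In these 3 genes every TP53INP2_OE library lay above every NC library. EIF3L rose from 39.9 ± 1.24 to 44.8 ± 1.05 FPKM (0.16, adjusted p 0.0155). EIF3L lost its call without NC replicate 1 or NC replicate 2 (adjusted p up to 0.0609), and it shares 59.7% of its windows with other genes, 44.8% with AL022311.1.

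The EIF3 genes that fell included 2 subunits of the core that is also found in budding yeast. EIF3G, an RNA-binding subunit, was 47.2, 46.4 and 44.5 FPKM in NC and 34.4, 29.9 and 31.9 in TP53INP2_OE, which fell by 30.3% (log2 fold change -0.51, SE 0.06, adjusted p 0.00284). EIF3B, the scaffold that binds EIF3G, was 41.0, 42.8 and 41.6 FPKM against 34.4, 33.8 and 36.1 (-0.26, SE 0.04, adjusted p 0.00436). The groups were apart in both genes, and neither shares a 50-base window with another gene. EIF3I, which binds the same scaffold and had the highest mean FPKM of the family over all 6 libraries (the NC mean of EIF5A was higher), was 192, 186 and 181 FPKM against 180, 168 and 164. It was lower in every TP53INP2_OE library but did not pass (-0.13, SE 0.04, adjusted p 0.0629). EIF3F was 15.7, 14.8 and 16.7 FPKM in NC and 13.9, 13.6 and 14.02 in TP53INP2_OE (-0.17, SE 0.05, adjusted p 0.0369). This call was lost when any 1 library other than NC replicate 2 was left out, with an adjusted p of up to 0.0986. EIF3A, the largest subunit, was 62.8 to 65.3 FPKM in NC and 63.3 to 65.8 in TP53INP2_OE, with overlapping groups. EIF3C was 4.91, 7.69 and 7.44 FPKM against 5.09, 5.43 and 3.47, and its fold change of -0.44 (SE 0.19) did not pass. EIF3C shares 50.3% of its windows with EIF3CL, and EIF3CL 98.7% with EIF3C, so their reads cannot be assigned with certainty. After the fit on GC content and length, EIF3E (0.13) and EIF3L (0.19) were still higher and EIF3G (-0.25) and EIF3F (-0.35) still lower. EIF3A then passed as lower (-0.11), and EIF3B, EIF3J and EIF3M did not pass.

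In the cap-binding and helicase group 3 of 10 tested genes fell and 3 rose (background 18.6% lower and 16.4% higher). EIF4H, which stimulates the helicase, was 186, 183 and 174 FPKM in NC and 144, 134 and 135 in TP53INP2_OE (log2 fold change -0.39, SE 0.04, adjusted p 0.00284). EIF4B, which has the same role, went from 64.6 ± 1.86 to 58.2 ± 0.86 FPKM (-0.15, adjusted p 0.0162). The EIF4B call was lost without NC replicate 1 (adjusted p 0.062), and EIF4B shares 37.1% of its windows with other genes. EIF4G1, the main scaffold, was 111, 108 and 108 FPKM against 91.5, 83.8 and 87.3 (-0.32, SE 0.04, adjusted p 0.00327). All 3 genes were lower in every TP53INP2_OE library and passed after the fit on GC content and length, with values of -0.29 for EIF4H, -0.19 for EIF4B and -0.13 for EIF4G1.

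As deposited, the relatives of EIF4G1 were not lower. EIF4G2, which lacks the EIF4E-binding site and supports translation without the cap factor, was 124, 125 and 128 FPKM in NC and 135, 138 and 136 in TP53INP2_OE (log2 fold change 0.12, SE 0.03, adjusted p 0.019). EIF4G2 lost its call without NC replicate 1, NC replicate 2 or TP53INP2_OE replicate 3 (adjusted p up to 0.0754). After the fit on GC content and length EIF4G2 was -0.055 and did not pass, and every TP53INP2_OE library then lay below every NC library. EIF4G3 was 15.2, 15.5 and 15.2 FPKM against 16.7, 16.2 and 16.1 and did not pass (0.09, SE 0.03, adjusted p 0.0837). EIF4G2 per EIF4G1 was 1.11, 1.15 and 1.19 in NC and 1.48, 1.65 and 1.56 in TP53INP2_OE, 1.36-fold higher. The ratio did not overlap between groups, and 3 against 3 libraries cannot give a two-sided exact permutation p below 0.1, which was the value found. Its log2 difference was 0.44 as deposited and 0.07 once GC content and length were fitted out.

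The helicase EIF4A2 and the cap-binding protein EIF4E were higher as deposited. EIF4A2 rose from 43.4 ± 0.43 to 48.1 ± 0.51 FPKM (log2 fold change 0.14, SE 0.03, adjusted p 0.0108), with 42.9, 43.4 and 43.8 FPKM in NC and 47.5, 48.5 and 48.1 in TP53INP2_OE. EIF4A1 was listed at only 1.75, 2.02 and 2.10 FPKM in NC and 1.82, 1.36 and 1.72 in TP53INP2_OE. All of the 50-base windows of EIF4A1 (100%) occur in other genes of the annotation, 91.7% in AC016876.2 and 83.0% in the readthrough gene SENP3-EIF4A1, so this level cannot be read as that of the helicase. EIF4E was 3.03, 2.94 and 3.19 FPKM in NC and 3.54, 3.71 and 3.64 in TP53INP2_OE (0.19, SE 0.05, adjusted p 0.0305). Its call was lost when any 1 library other than NC replicate 3 was left out, with an adjusted p of up to 0.0977. Fitted for GC content and length, EIF4A2 was -0.05 and EIF4E -0.01, and neither passed. EIF4E2, a cap-binding relative that represses translation, and EIF4A3, the helicase of the exon junction complex, did not pass. EIF4E3 was at 0.157 to 0.254 FPKM, from 30 to 49 reads, and EIF4E1B was listed at 0 in every library, so neither was tested.

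The largest change of the family as deposited was in an inhibitor. EIF4EBP1, the binding protein that keeps EIF4E from EIF4G until mTORC1 phosphorylates it, was 163, 151 and 136 FPKM in NC and 99.7, 81.3 and 84.8 in TP53INP2_OE. It fell by 40.8% (log2 fold change -0.75, SE 0.09, adjusted p 0.00319). The highest TP53INP2_OE library lay well below the lowest NC library, although the NC libraries were themselves spread (SD 13.5 FPKM). EIF4EBP1, on chromosome 8 (38030534 to 38060365, GRCh38, plus strand), had the highest GC content of the family, 65.5%. Once GC content and length were fitted out, EIF3C was lower (-0.45, SE 0.19) but did not pass, while EIF4EBP1 was -0.42 and passed. EIF4EBP2, its paralog, was 9.71, 9.64 and 9.42 FPKM against 10.5, 11.0 and 10.2, higher in every TP53INP2_OE library but not past the threshold (0.12, SE 0.04, adjusted p 0.0633). EIF4EBP1 per EIF4EBP2 was 15.6 ± 1.17 in NC and 8.42 ± 1.07 in TP53INP2_OE, and its libraries did not overlap (exact permutation p 0.1, the smallest possible). EIF4EBP1 per EIF4E, a ratio chosen after its values were seen, was 53.7, 51.3 and 42.5 in NC and 28.1, 21.9 and 23.3 in TP53INP2_OE, 0.497 of the NC level (exact permutation p 0.1). The log2 differences of these ratios, -0.89 per EIF4EBP2 and -1.01 per EIF4E, were -0.44 and -0.41 once GC content and length were fitted out. These are transcript levels, and phosphorylation of the protein was not measured. EIF4ENIF1, which carries EIF4E into the nucleus, did not pass (-0.11, SE 0.08), and EIF4EBP3 had 0 to 7 reads and was not tested.

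**Figure D4:**
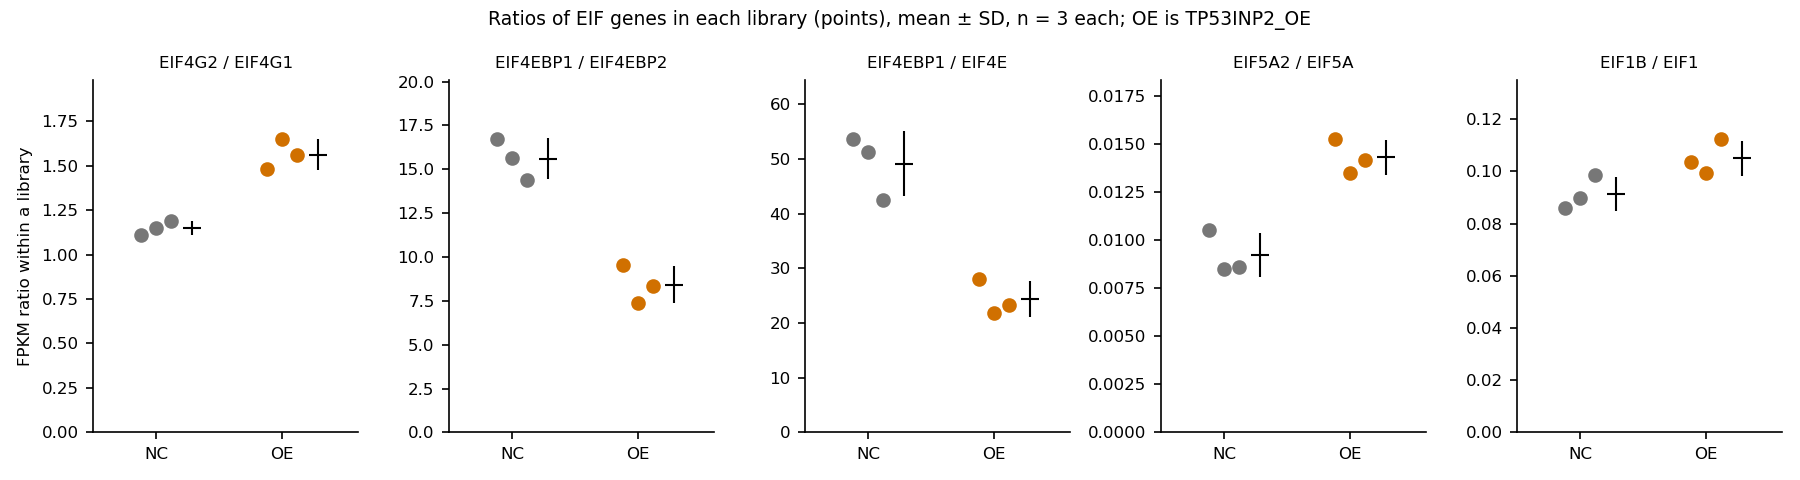
Ratio of FPKM of 5 pairs of EIF genes in each library (points; vertical axes from 0), with the mean and SD of the 3 libraries of each group. EIF4G2 per EIF4G1 lies between 1.11 and 1.19 in NC and between 1.48 and 1.65 in TP53INP2_OE, and EIF4EBP1 per EIF4E between 42.5 and 53.7 and between 21.9 and 28.1.

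Beyond initiation itself, EIF5A and EIF6 fell and EIF5A2 rose. EIF5A, which carries hypusine and helps ribosomes through stalling sequences, was 188, 196 and 187 FPKM in NC and 162, 167 and 165 in TP53INP2_OE (log2 fold change -0.21, SE 0.03, adjusted p 0.00524). EIF5A2, its paralog, was 1.98, 1.66 and 1.61 FPKM against 2.48, 2.25 and 2.35 (0.29, SE 0.08, adjusted p 0.0287). Both groups of libraries were apart in each gene. The EIF5A2 call was lost when any 1 library other than NC replicate 1 was left out (adjusted p up to 0.0895). EIF5A2 per EIF5A was 0.00922 ± 0.00115 in NC and 0.0143 ± 0.00091 in TP53INP2_OE (exact permutation p 0.1), and EIF1B per EIF1 was 0.0915 ± 0.0065 and 0.105 ± 0.0067 (exact permutation p 0.1). The p-values of all 5 ratios tested remain 0.1 after Benjamini-Hochberg adjustment, and the last 2 ratios overlapped between groups with GC content and length fitted out. EIF5A shares 35.1% of its windows, chiefly with EIF5AL1, which did not pass (0.04, SE 0.12). EIF6, which keeps the large ribosomal subunit from joining too early, was 107, 107 and 102 FPKM in NC and 85.9, 70.1 and 85.8 in TP53INP2_OE (-0.39, SE 0.08, adjusted p 0.012). TP53INP2_OE replicate 2 was the lowest, and all 3 lay below NC. In the fit on GC content and length, EIF5A was 0.0017, EIF5A2 0.07 and EIF6 -0.16, and none passed.

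The other genes of translation were read from 4 lists. Of the 47 listed genes 45 were tested and 16 passed (35.6%, background 35.0%), 7 higher and 9 lower. EEF1G was listed at 0 in every library. Among 10 genes around the EIF2 kinases 3 passed (30%, background 35.0%), and none of the 4 kinases did. ATF4, the factor whose translation rises when EIF2 is phosphorylated, was 121, 113 and 109 FPKM in NC and 92.9, 88.8 and 87.0 in TP53INP2_OE (log2 fold change -0.35, SE 0.05, adjusted p 0.0038). DDIT3, one of its targets, was also lower (-0.21, adjusted p 0.0365), and IMPACT, an inhibitor of the kinase EIF2AK4, was higher (0.20, adjusted p 0.0226). DDIT3 lost its call without NC replicate 1 or 2 or TP53INP2_OE replicate 1 or 2 (adjusted p up to 0.115), and IMPACT without NC replicate 1 or 3 or TP53INP2_OE replicate 1 or 2 (up to 0.0616).

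Of 14 tested regulators of the cap and the poly(A) tail 4 fell and none rose. The share past the threshold was 28.6%, against 35.0% of all tested genes (16.4% higher, 18.6% lower). RPS6KB2, a ribosomal S6 kinase, went from 6.51 ± 0.22 to 4.04 ± 0.41 FPKM (log2 fold change -0.58), and MKNK2, a kinase of EIF4E, from 50.8 ± 5.02 to 36.0 ± 2.41 FPKM (-0.48). PABPC4, a poly(A)-binding protein (-0.23), and RPTOR, the mTORC1 subunit (-0.20), were the others, and RPTOR lost its call without NC replicate 2 (adjusted p 0.0518). Among 10 recycling and scanning factors 4 passed (40%, background 35.0%). ABCE1, the ribosome recycling factor (0.32), DHX29 (0.26) and DDX3X (0.17), both scanning helicases, rose. DOHH, the second enzyme of hypusine formation on EIF5A, fell from 10.5 ± 1.00 to 7.11 ± 1.58 FPKM (-0.52, adjusted p 0.0283). DOHH lost its call without NC replicate 1 or 3 or TP53INP2_OE replicate 1 or 2 (adjusted p up to 0.0936), and DDX3X without NC replicate 1 or 2 or TP53INP2_OE replicate 2 or 3 (up to 0.0837). On the list headed elongation and termination factors 5 of 11 tested genes passed (45.5%, background 35.0%). Of these listed genes EEF1E1 (0.40), ETF1 (0.18) and GSPT1 (0.14) rose, while EEF1D (-0.37) and EEF2, the translocase, fell. EEF2 went from 653 ± 22.7 to 512 ± 25.4 FPKM (-0.35, adjusted p 0.00362). GSPT1 lost its call without NC replicate 1 or 2 (adjusted p up to 0.0758). In the fit on GC content and length, 3 of the 45 passed (6.67%, against 10.4% of all genes tested that way). These were PABPC4 (-0.285) and RPS6KB2 (-0.37) lower and EEF1A2 (0.44) higher. GSPT1 and EEF1A2 lie outside the rule for naming and were chosen after their values were seen.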

How the data were processed

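Groups and replicate numbers come from the sample titles. The authors deposited 1 table of FPKM values with gene names, types, positions and gene length, per the file headers. Every value column belonged to a sample. Bowtie 0.12.2, GRCh38 and mm8 stand in the submitters' processing notes without their role. The read counting step was not given in the sources used here. Of the table's gene IDs 96.2% were found in GENCODE 29 (GRCh38), with the same start or end for 92.8% of these.

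FPKM times gene length gave whole multiples of the value of 1 read in 100% of values above 0 (tolerance 0.01), and these reads give the depth. Genes averaging 0.5 FPKM or more were tested on log2(FPKM + 1) with limma 3.58.1 in R 4.3.3 (empirical Bayes with trend, Benjamini-Hochberg over all tested genes, threshold 0.05, two-sided, SE beside each log2 fold change). The plan's count model was for raw counts and does not apply to FPKM. The fits were also run on simulated reads drawn with the same spread setting for every gene, which does not show how well they hold on these data. GC content of the longest GENCODE 29 transcript and gene length were fitted out with natural splines (5 degrees of freedom each). It was known for 98.4% of tested genes. Shared sequence was the percent of a gene's 50-base windows found in transcripts of another gene. Among genes past the threshold it was also 19.0% for EIF6, 14.6% for EIF3M, 14.0% for EIF5B, 13.8% for EIF4H and 12.6% for EIF3E.

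The members, lists and tests were chosen with earlier results of these data known. All EIF genes may be named. All 6 values are given for up to 8 genes past the threshold with the largest change in each direction, for the 4 highest expressed and for paralog pairs. EIF4E was added after its values were seen, and those of EIF3C are also given outside this rule. From each list of other translation genes, up to 4 past the threshold with the largest change are named. All 47 listed genes were found in the table. Alternatives covered the pseudocount, filter, gene types, scaling, test, GC content and length, replicate block and each library left out. The labels give no batch. No pair of libraries agreed within sampling noise (chi-square per degree of freedom 2.58 to 4.97 within groups).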

Additional observations from a re-analysis of the deposited data

How the results depend on the processing

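The main count was 25 of 48 EIF genes (16 higher, 9 lower). It was 25 with pseudocounts of 0.1 or 0.5 FPKM (52.1%, against 35.0% of all genes). A minimum of 5 FPKM gave 25 of 41 (61.0%, against 62.5%), and no filter 20 of 50 (40.0%, against 11.2%). Among protein-coding genes it was 28 of 48 (58.3%, against 50.8%). As TPM it was 26 (18 higher, 8 lower) and after quantile normalization 26 (19 higher, 7 lower), both 54.2% against 35.2%. Voom on the recovered reads gave 27 (15 higher, 12 lower, 56.25%, against 41.5%). Leaving out 1 library gave 18 to 23 (37.5% to 47.9%, against 22.0% to 32.4%). With GC content and length fitted out it was 9 (2 higher, 7 lower, 18.8%, against 10.4%). With the replicate block as well it was 5 (0 higher, 5 lower, 10.4%, against 4.59%). An alternative chosen after seeing the data, with at most 20% of windows shared, had 20 of 36 EIF genes past the threshold (55.6%). Shared windows were not computed for the other genes, so only the 35.0% of all tested genes stands beside it. Of all tested genes 5183 passed, 3265 to 4808 with 1 library left out, the fewest without NC replicate 1. With GC content and length fitted out 1514 passed, and 668 with the block as well. Of the other translation genes 16 passed (35.6%), and 11 to 16 with 1 library left out (24.4% to 35.6%). With GC content and length fitted out 3 of them passed (6.67%), and 1 with the block as well (2.22%). Of the 25 EIF genes, 16 passed with each library left out and 9 did not. The cause of these shifts was not tested.

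Same-numbered libraries of the 2 groups correlated by 0.082, -0.027 and -0.081 in their deviations from the group means (7264 genes), so the numbers are not taken as pairs. With the replicate block alone 23 EIF genes (47.9%), 4396 of all genes (29.7%) and 14 other translation genes (31.1%) passed.

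Signs turned, with the same values with and without the replicate block, where GC content and length were fitted out: EIF5A 0.0017, EIF4G2 -0.055, EIF3A -0.11, EIF3D 0.013, EIF3K 0.023, EIF4A2 -0.053, EIF3H -0.071, EIF2B1 -0.048, EIF5AL1 -0.012, EIF4E -0.012, IMPACT -0.0019, RPTOR 0.036 and DDX3X -0.034. After quantile normalization EIF3I was 0.0039 and EIF1 0.046. With 1 library left out EIF1 ran from -0.060 to 0.018, EIF3A from -0.0055 to 0.027, EIF2B1 from -0.030 to 0.027 and EIF5AL1 from -0.041 to 0.18, and none of these 4 passed. Of these genes, EIF5A, EIF4G2, EIF4A2, EIF4E, IMPACT, RPTOR and DDX3X had passed the test, and they turned only with GC content and length fitted out. Between 89 and 222 reads per library lie behind EIF2S3B, EIF3CL, EIF4A1 and EIF5A2, so counting error is largest for these 4 of the tested genes.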
